A study of Mus musculus with 10 samples.

Results

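The OAS genes are the mouse genes of the 2',5'-oligoadenylate synthetases and their inactive relatives. 8 of them, chosen by name from 55494 annotated genes, are described here: Oas1a, Oas1b, Oas1c, Oas1g, Oas2, Oas3, Oasl1 and Oasl2. 4 further Oas1 copies, Oas1d, Oas1e, Oas1f and Oas1h, were looked up as well. Gene expression was measured by RNA sequencing of leukemia initiating cells, obtained by cell sorting from spleens of mouse pups aged 13 days. Libraries came from 5 pups given 20 µg of Poly(A:U), a synthetic duplex of RNA strands, and from 5 pups given 50 µl of PBS, in both groups 7 days before the cells were collected. All 10 pups carried the RFP/RET transgene (Eμ-Ret), in which the immunoglobulin heavy chain enhancer Eμ drives the fusion gene in B lineage cells, so no group without leukemia stands beside them. The stated aim was to learn how Poly(A:U) affects these cells. The labels do not give the sex or the litter of a pup.

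OAS proteins sense double-stranded RNA in the cytosol. The active ones then join ATP into short 2',5'-linked oligoadenylates (2-5A), a signal of antiviral defence. Type I interferon induces most OAS genes through the factor ISGF3, which contains STAT2 and IRF9 and binds a promoter element called ISRE. A phosphodiesterase, Pde12, and the phosphodiesterase domain of mouse Akap7 degrade 2-5A, and Abce1, also known as a ribosome recycling factor, is counted with the pathway.

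All 8 genes lie on chromosome 5 of the mm10 build. Oasl2 (chr5:114896936-114912234) and Oasl1 (chr5:114923240-114937915) are neighbours, and the other genes form one cluster from Oas2 (chr5:120730333-120749853) and Oas3 (chr5:120753098-120777661) through Oas1c (chr5:120800194-120812514), Oas1b (chr5:120812635-120824163) and Oas1g (chr5:120876142-120887613) to Oas1a (chr5:120896256-120907521). Oas1c and Oas1b run in opposite directions from start sites that are 121 bases apart. The Oas1 copies are alike in sequence, which limits how well reads can be told apart. The coding sequences of Oas1a and Oas1g are 96.7% identical over 1104 aligned bases, against 76.3% for Oas1a and Oas1c. Of all 31-base words of the Oas1a transcript, 68.0% also occur in the protein-coding transcript of Oas1g, with a longest identical run of 526 bases, but 1.94% occur in Oas1b. Reads of Oas1a and Oas1g were therefore split by the authors' estimation, and the level of each alone is uncertain.

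Oas1b is known as the gene that decides resistance to flaviviruses in mice, and in many laboratory strains a stop codon truncates it. The annotated transcript that took 96.1% of the Oas1b reads here, Oas1b-203, is classed as a polymorphic pseudogene. Its reading frame stops after 252 codons, whereas those of Oas1a-201 and Oas1g-201 run for 367 codons. The 3 sequences below, from the annotated transcripts of the reference genome, show the place of that stop, with the codon concerned in capitals.
Oas1b-203: acagcccagggcttcTGAaccgtcttggaa
Oas1a-201: acagcccagggcttcCGGaccgtcttggaa
Oas1g-201: acagcccagggcttcCGGaccgtcttggaa
Oas1b-201, the Oas1b transcript annotated as protein-coding, was given 0 reads in each of the 10 libraries. It shares 97.6% of its 31-base words with Oas1b-203, and its reading frame was not examined. The assignment of reads follows the transcripts offered to the counter, and the reads themselves were not examined for the stop codon.

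Promoters were read from the RefSeq windows of GRCm38.p6, which run from 250 bases before a gene's start to 50 bases after it and exist for 6 of the 8 genes. The ISRE core was searched as TTTC-NN-TTTC and, on the other strand, GAAA-NN-GAAA (N being any base), and 4 of the 6 windows held it, against 3.44% of all 32851 windows. The sites are shown because they are the letters through which interferon is known to reach OAS genes; each has 10 bases on either side, and capitals mark the ISRE core or 2 overlapping cores.
Oas1a: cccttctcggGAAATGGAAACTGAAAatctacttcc
Oas1g: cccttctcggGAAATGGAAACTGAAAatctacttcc
Oas1c: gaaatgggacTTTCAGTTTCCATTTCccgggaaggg
Oas3: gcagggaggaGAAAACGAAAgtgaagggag
The sites lie from base -20 to base -5 before the start of Oas1a (window chr5:120907476-120907775, minus strand) and from -18 to -3 before that of Oas1g (chr5:120887564-120887863, minus strand). They lie from -114 to -99 for Oas1c (chr5:120812465-120812764, minus strand) and from -75 to -66 for Oas3 (chr5:120777610-120777909, minus strand). The Oas1c site falls between the start sites of Oas1c and Oas1b, which are 121 bases apart. It therefore also lies before the start of Oas1b, a gene without a window of its own. Read on the other strand, its capitals are those of Oas1a and Oas1g. The windows of Oasl1 (chr5:114922990-114923289) and Oasl2 (chr5:114896684-114896983), both on the plus strand, did not hold these letters. The GAS core TTCNNNGAA, which reads the same on both strands and is a site of STAT dimers, occurred once, at -98 in the window of Oas1a, and occurs in 8.30% of all windows. A match is a description of the letters and not evidence of binding.

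Libraries held 17849707 to 22572180 estimated reads, and B cell precursor markers were high in all of them, with summed levels of 13090 to 15900 CPM (reads scaled to library size) in Poly(A:U) and 11140 to 17720 CPM in PBS. The libraries differed in ways that follow the file names. PBS 1, PBS 2 and PBS 3 share the name start CNT-sort, whose meaning the labels do not state and which no other file has. Y-linked Ddx3y was at 42.8 to 51.6 CPM in these 3 libraries and at 4.67 CPM or less in the other 7, and Xist, the RNA of the inactive X chromosome, was at 0.336 CPM or less in the 3 and at 112 CPM or more in the other 7. The summed level of 10 neutrophil markers was 31.2 to 274 CPM in Poly(A:U) and 51.7 to 1097 CPM in PBS, with 735 to 1097 CPM in PBS 1 to 3. PBS 4 stood apart by its T cell markers (208 CPM, against at most 38.0 CPM elsewhere) and macrophage markers (126 CPM, against at most 28.3 CPM elsewhere). PBS 4 and Poly(A:U) 5 have a name part in common, as have PBS 5 and Poly(A:U) 1, and Poly(A:U) 3 and 4, again with no stated meaning. Across genes, the library most like PBS 4 was Poly(A:U) 5 (Pearson r of log2 CPM 0.959), and the one most like PBS 5 was Poly(A:U) 1 (0.987). PBS 5 was almost as close to Poly(A:U) 3 (0.986) and Poly(A:U) 4 (0.985). By a second measure, chi-squared per gene (lower for libraries more alike), PBS 4 was nearest Poly(A:U) 4 (49.9), with Poly(A:U) 5 at 74.1. PBS 5 was again nearest Poly(A:U) 1 (10.8). Treatment, name start and sex-linked RNA therefore overlap in this design, and the main results below are also given without PBS 1 to 3.

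Per unit of transcript length, the OAS genes fell into an upper group of 4 and a lower group of 4. On the TPM scale, which corrects for transcript length, the mean level over the 10 libraries was 11.4 ± 2.28 for Oas1c (SD, n = 10), 7.61 ± 4.00 for Oas1a, 6.24 ± 3.25 for Oasl1 and 5.01 ± 1.37 for Oas1b. It was 0.581 ± 0.530 TPM for Oas2, 0.535 ± 0.269 TPM for Oas3, 0.412 ± 0.390 TPM for Oasl2 and 0.174 ± 0.220 TPM for Oas1g. Neighbours in this order were compared within libraries by an exact two-sided sign-flip permutation test on log2(TPM + 0.1), adjusted over the 7 neighbour pairs. The step from Oas1c to Oas1a passed (adjusted p = 0.0273 by the exact permutation test, higher in 8 of 10 libraries), and so did the step from Oas1b to Oas2 (adjusted p = 0.0137, higher in 10 of 10 libraries). The other 5 steps did not, with adjusted p-values between 0.0638 for Oasl2 over Oas1g and 0.791 for Oas2 over Oas3 (exact permutation test). The number of steps past the threshold was 1 when PBS 4 or 5, or Poly(A:U) 1, 3, 4 or 5, was left out. It was 0 without PBS 1 to 3, where 7 libraries allow only larger p-values, so this 0 does not show that the steps were lost. In those 7 libraries Oas1b stood above Oasl1, and Oas3 above Oas2.

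**Figure D1:**
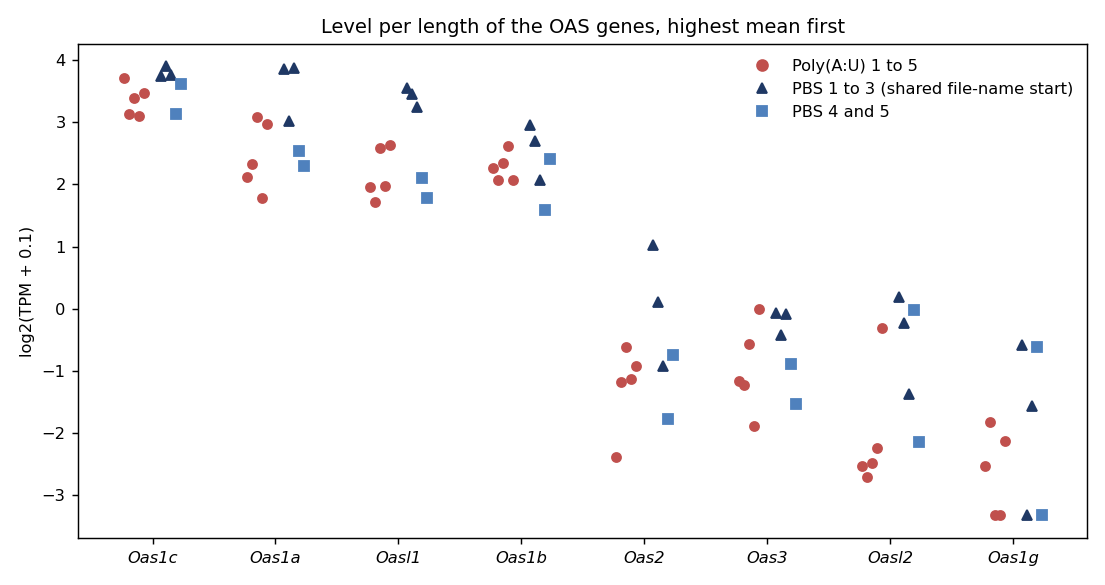
Level of the 8 OAS genes on the log2(TPM + 0.1) scale, 1 point per library, ordered by mean TPM from left to right, with Poly(A:U) libraries (circles) left of PBS libraries (triangles for PBS 1 to 3, squares for PBS 4 and 5). Oas1c, Oas1a, Oasl1 and Oas1b form the upper group with mean levels of 5.01 to 11.4 TPM, and Oas2, Oas3, Oasl2 and Oas1g the lower group with 0.174 to 0.581 TPM.

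The remaining Oas1 copies were at or next to 0. Oas1d and Oas1h had 0 reads in every library, where a count of 0 allows up to 0.133 to 0.168 CPM (3 reads, counting error only), and Oas1e and Oas1f had no more than 1 read in any library.

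No OAS gene differed between Poly(A:U) and PBS at the adjusted threshold by edgeR or DESeq2. edgeR's quasi-likelihood test over 13729 genes, with Benjamini-Hochberg adjustment and a threshold of 0.05, called 0% of all genes, and 7.3% had an unadjusted p below 0.05. 6 of the 8 OAS genes had enough reads for this test. All 6 log2 fold changes were negative and had a median of -0.66, whereas 50.6% of all genes were negative and the median of all genes was -0.0024. 2 of the 6, Oasl1 and Oas1a, had an unadjusted p below 0.05 and were lower in Poly(A:U), as were 3.19% of all genes. In none of the 8 did all Poly(A:U) libraries lie below all PBS libraries, as they did for 0.168% of tested genes (0.947% with either group entirely above the other).

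Oas1a, Oas1g, Oas2 and Oas3 encode active synthetases. Oas1a had 6.05, 7.71, 11.9, 4.65 and 9.59 CPM in Poly(A:U) 1 to 5, against 18.9, 11.3, 20.3, 8.61 and 6.74 CPM in PBS 1 to 5. PBS 1 and PBS 3 were above all Poly(A:U) libraries, while PBS 4 and PBS 5 lay among them. Its mean was 7.99 ± 2.88 CPM in Poly(A:U) and 13.2 ± 6.10 CPM in PBS (SD, n = 5 each). This is -0.74 ± 0.33 (SE) as a log2 fold change and did not pass (adjusted p = 0.679, edgeR; unadjusted p = 0.0455).

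Oas2, which has a pair of OAS domains, had 0.279, 1.15, 1.70, 1.06 and 1.14 CPM in Poly(A:U) 1 to 5, against 5.52, 2.97, 1.28, 0.639 and 1.32 CPM in PBS 1 to 5. Only PBS 1 and PBS 2 exceeded the Poly(A:U) libraries. The log2 fold change was -1.15 ± 0.56 (SE) and did not pass (adjusted p = 0.695, edgeR). It was -0.56 without PBS 1 alone, so that library carried much of the value.

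Oas3, a long synthetase with repeated OAS domains, had 0.892, 1.29, 2.13, 0.616 and 2.46 CPM in Poly(A:U) 1 to 5, against 2.93, 2.35, 2.93, 1.72 and 0.896 CPM in PBS 1 to 5. The groups overlapped, with Poly(A:U) 5 above PBS 2, PBS 4 and PBS 5. The log2 fold change was -0.58 ± 0.42 (SE; adjusted p = 0.725, edgeR).

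Oas1g, the near-copy of Oas1a, was given 1, 5, 0, 0 and 3 reads in Poly(A:U) 1 to 5, against 12, 0, 5, 14 and 0 reads in PBS 1 to 5. It was below the filter on low counts. Of its few reads, 92.6% were assigned to a transcript annotated for nonsense-mediated decay. Together with the words it shares with Oas1a, these numbers do not show whether Oas1g itself was transcribed.

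2 Oas1 copies differ from these in function. Oas1b, truncated in the annotated form counted here, had 4.29, 6.11, 6.29, 7.00 and 4.79 CPM in Poly(A:U) 1 to 5, against 8.16, 8.23, 5.55, 4.28 and 5.80 CPM in PBS 1 to 5. The groups overlapped over most of their range, and the log2 fold change was -0.19 ± 0.21 (SE; adjusted p = 0.813, edgeR). Oas1c, which in mice lacks synthetase activity, had 20.1, 15.8, 17.1, 14.2 and 14.3 CPM in Poly(A:U) 1 to 5, against 18.9, 21.6, 18.2, 12.6 and 19.3 CPM in PBS 1 to 5. The lowest and the second highest of its 10 values were PBS 4 and Poly(A:U) 1. Its log2 fold change was -0.17 ± 0.15 (SE; adjusted p = 0.761, edgeR), with a 95% interval from -0.50 to 0.15.

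Oasl1 and Oasl2 encode OAS-like proteins with a ubiquitin-like tail. Oasl1 has no synthetase activity and in mice holds back translation of Irf7, a factor that amplifies the interferon response. Oasl1 had 6.19, 5.49, 7.29, 6.11 and 8.94 CPM in Poly(A:U) 1 to 5, against 17.7, 12.7, 15.4, 7.47 and 5.51 CPM in PBS 1 to 5. PBS 1, PBS 2 and PBS 3 lay above the other 7 libraries, and PBS 4 and PBS 5 lay within the range of Poly(A:U). The mean was 6.80 ± 1.36 CPM in Poly(A:U) and 11.8 ± 5.16 CPM in PBS (SD, n = 5 each). The log2 fold change was -0.82 ± 0.28 (SE), with an unadjusted p of 0.0130 and an adjusted p of 0.677 (edgeR).

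Oasl1 was the only one of the 6 genes past the threshold by limma voom with quality weights (log2 fold change -0.92, adjusted p = 0.0464), a test that called 6.79% of all genes, 3.23% as lower in Poly(A:U). DESeq2 called none of the 6 and 0.0967% of all genes. Oasl2, an active synthetase in mice, was below the filter, with 2, 2, 1, 3 and 18 reads in Poly(A:U) 1 to 5, against 18, 15, 8, 18 and 4 reads in PBS 1 to 5. Poly(A:U) 5 stood at the level of the high PBS libraries, and PBS 5 near that of the other Poly(A:U) libraries. Poly(A:U) 5 and PBS 4, which have a name part in common, both had 18 reads, but so had PBS 1, which does not share it. PBS 5 had 4 reads. Poly(A:U) 1, with which PBS 5 has a name part in common, had 2, and Poly(A:U) 2 to 4 had 2, 1 and 3.

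**Figure D2:**
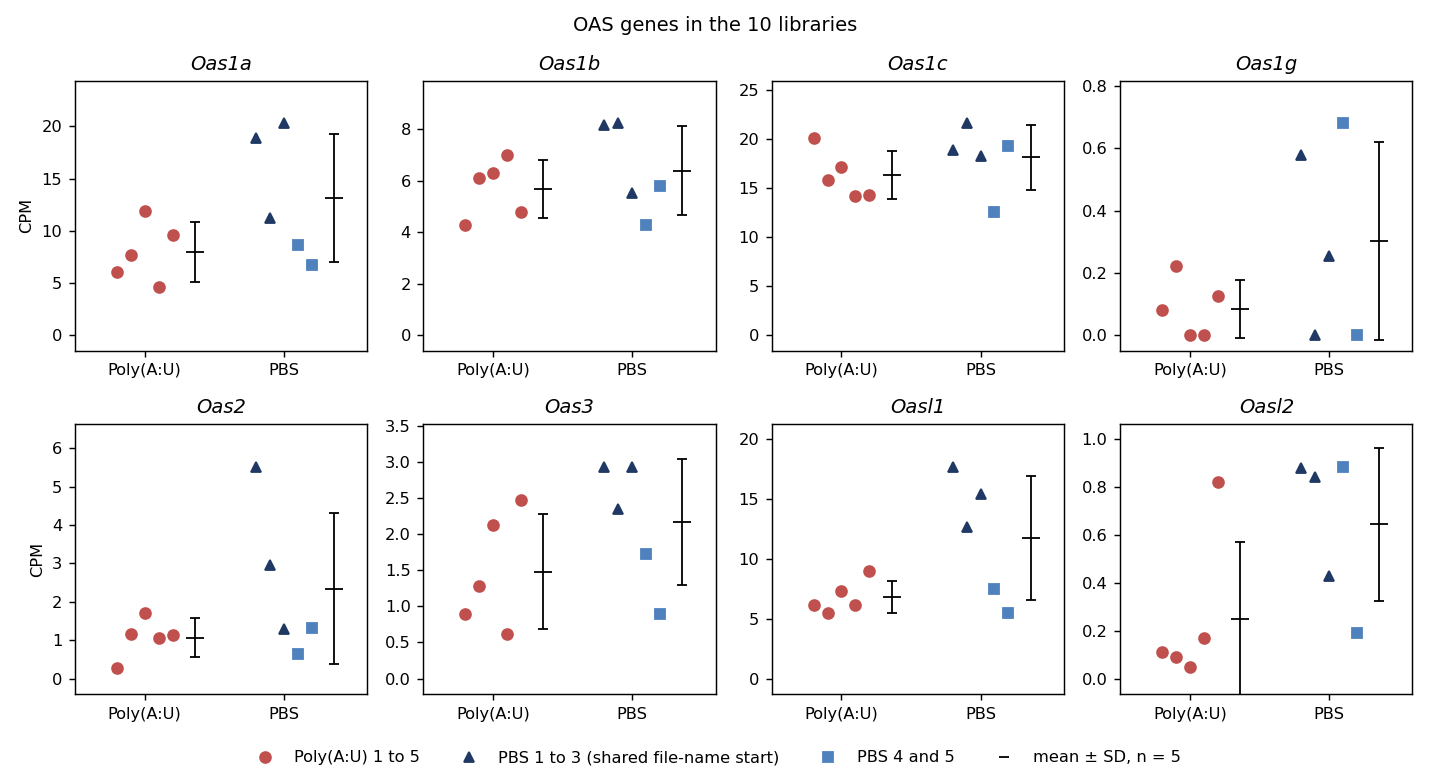
CPM of each OAS gene in the 10 libraries, 1 panel per gene with its own axis, Poly(A:U) libraries as circles on the left and PBS libraries on the right (triangles PBS 1 to 3, squares PBS 4 and 5), with mean ± SD (n = 5) beside each group; the lower bar of Oasl2 in Poly(A:U) is clipped at the edge of the panel. For Oasl1 the 3 triangles lie at 12.7 to 17.7 CPM and all other points at 8.94 CPM or less, whereas for Oas1b and Oas1c the groups overlap.

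The 5 PBS libraries were not alike. Between PBS 1 to 3 and PBS 4 and 5, fitted as a term beside treatment, all 6 tested OAS genes were higher in PBS 1 to 3, with a median difference of 1.08 on the log2 scale (median of all genes -0.0137). Oasl1 passed, being higher in PBS 1 to 3 by 1.21 ± 0.24 on the log2 scale (SE; adjusted p = 0.0488, edgeR), and 0.131% of all genes were called higher in this comparison. Oas2 differed by 1.72 ± 0.70 (adjusted p = 0.216), Oas1a by 1.11 ± 0.37 (adjusted p = 0.144) and Oas3 by 1.04 ± 0.55 (adjusted p = 0.340), and none of these passed in edgeR. 3 of the 6 genes, Oasl1, Oas1a and Oas2, had an unadjusted p below 0.05 in this direction, as had 6.35% of all genes. Oas1b differed by 0.53 ± 0.28 and Oas1c by 0.29 ± 0.20, which did not pass either. Oasl1 was also the only one of the 8 genes whose 3 PBS 1 to 3 values all exceeded the other 7, as did 4.27% of tested genes.

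The Oasl1 call is a narrow one. Its adjusted p (edgeR) was 0.0516 with the RLE normalization factors of DESeq2, and 0.202, 0.135, 0.138 and 0.0962 without PBS 1, 2, 3 and 4. It was 0.0712, 0.0894 and 0.0851 without Poly(A:U) 1, 3 and 4. It was 0.0437 and 0.0228 without Poly(A:U) 2 and 5, and 0.0434 without PBS 5. The 10 neutrophil markers moved with PBS 1 to 3: of the 7 tested, all 7 were higher there, with a median difference of 4.10 on the log2 scale, and no marker was at 0 in PBS 1 to 3. Erythroid markers moved the other way: all 8 tested were lower in PBS 1 to 3, with a median difference of -4.55 on the log2 scale and a summed level of 138 to 432 CPM there, against 1354 to 12300 CPM in the other 7 libraries. The part of these cells or of the sex of the pups in the OAS levels was not tested. In the bulk RNA, a change in the cells present and a change in RNA per cell cannot be told apart.

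Set against PBS 4 and PBS 5 alone, the 6 tested OAS genes were not lower in the Poly(A:U) libraries. Without PBS 1 to 3, the log2 fold change was 0.02 ± 0.35 (SE) for Oas1a, 0.15 ± 0.27 for Oas1b, 0.01 ± 0.21 for Oas1c, 0.10 ± 0.65 for Oas2, 0.13 ± 0.60 for Oas3 and 0.03 ± 0.24 for Oasl1. These 6 values turned positive, with a median of 0.06, and the median of all genes was 0.0028. The 2 genes below the filter did not follow: Oasl2 averaged 0.247 CPM in Poly(A:U) and 0.537 CPM in PBS 4 and 5, and Oas1g 0.0855 CPM in Poly(A:U) and 0.340 CPM in PBS 4 and 5, on few reads. Oasl2 entered the test once PBS 1 to 3 were left out, because the filter then asked for enough reads in 2 libraries instead of 5. It met this through PBS 4 and Poly(A:U) 5, with 18 reads each. Its log2 fold change there was -1.15 ± 1.07 (SE), which was not called (edgeR). With 2 PBS libraries, each of which shares a name part with a Poly(A:U) library, the errors are wide, and these values do not show that levels were equal. The Poly(A:U) libraries themselves were not uniform: the neutrophil sum was lowest in Poly(A:U) 5 at 31.2 CPM, where Oasl1 was highest of the 5, and highest in Poly(A:U) 3 at 274 CPM, where Oas1a was highest of the 5. Poly(A:U) 1 had a neutrophil sum of 31.8 CPM, and its erythroid sum was 5603 CPM, against 1354 CPM in Poly(A:U) 5. Oasl1 was at 6.19 CPM in Poly(A:U) 1 and 8.94 CPM in Poly(A:U) 5, and Oas1a at 6.05 and 9.59 CPM. A link between the marker sums and the OAS levels was not tested.

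**Figure D3:**
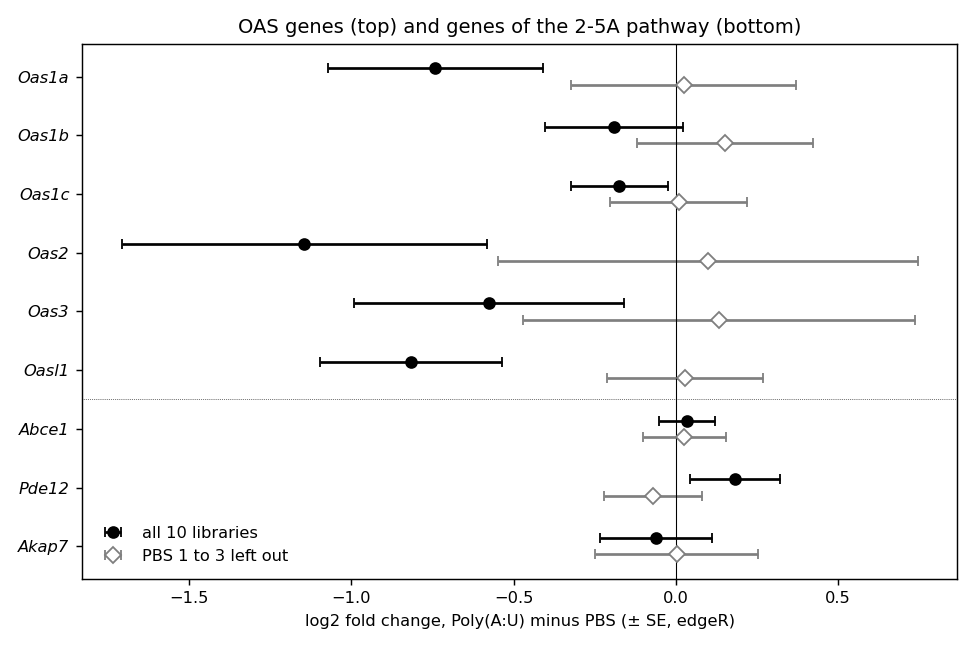
Log2 fold change (Poly(A:U) minus PBS, ± SE, edgeR) of the 6 tested OAS genes and of 3 genes of the 2-5A pathway, with all 10 libraries (filled circles) and with PBS 1 to 3 left out (open diamonds). The OAS values lie between -1.15 and -0.17 with all libraries and between 0.01 and 0.15 without PBS 1 to 3.

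As the near-identical copies share reads, the Oas1 copies were also summed. The sum was 30.5, 29.9, 35.4, 25.9 and 28.8 CPM in Poly(A:U) 1 to 5, against 46.5, 41.1, 44.3, 26.2 and 31.9 CPM in PBS 1 to 5. Again PBS 1 to 3 were high and PBS 4 and PBS 5 lay among the Poly(A:U) libraries. The log2 fold change of the sum was -0.36 ± 0.15 (SE; adjusted p = 0.676, edgeR).

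Oas1c took the most Oas1 reads in 8 of the 10 libraries. Its share of Oas1 reads was 54.3 ± 6.94% in Poly(A:U) and 48.6 ± 8.32% in PBS (SD, n = 5 each), and that of Oas1a was 26.1 ± 7.35% in Poly(A:U) and 33.6 ± 9.88% in PBS. Oas1b took between 12.5% and 27.1% and Oas1g at most 2.60%. In PBS 1 and PBS 3, Oas1a had at least as many reads as Oas1c (40.6% and 45.8% of Oas1 reads). The log2 ratio of Oas1a to Oas1c reads, a measure chosen after the values were seen, was -1.09 ± 0.56 in Poly(A:U) and -0.57 ± 0.69 in PBS (SD, n = 5 each). The difference of -0.52 was within the spread (exact two-sided permutation test, p = 0.198; the smallest p this design allows is 0.00794), and it was -0.06 without PBS 1 to 3.

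**Figure D4:**
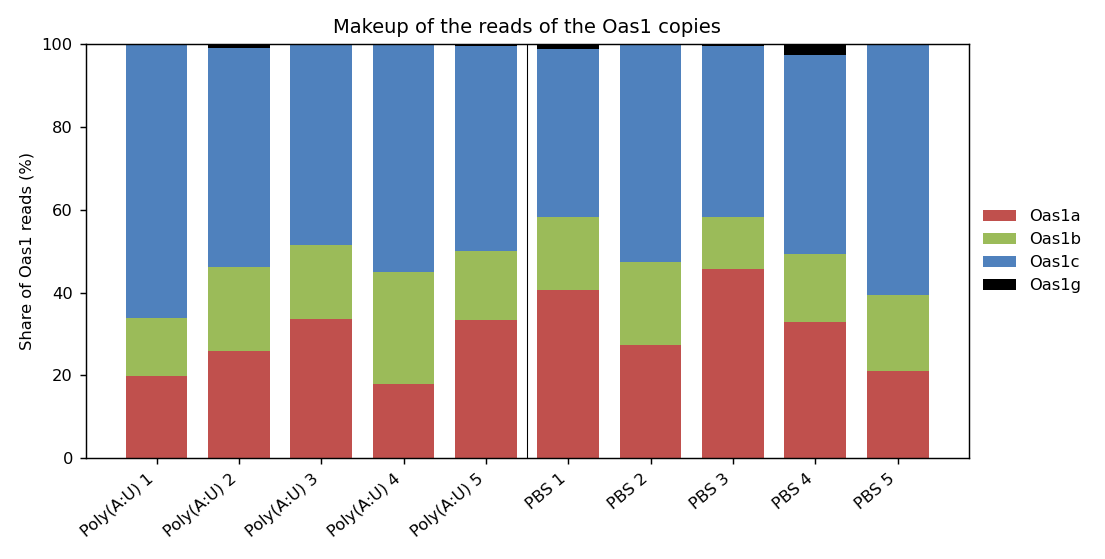
Share of Oas1 reads (%) given to Oas1a, Oas1b, Oas1c and Oas1g in each library, Poly(A:U) libraries on the left and PBS libraries on the right, 1 stacked bar per library. Oas1c takes between 40.6% and 65.9%, Oas1a between 18.0% and 45.8%, and Oas1g at most 2.60%.

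The genes of the 2-5A pathway did not pass either. Abce1 had a log2 fold change of 0.03 ± 0.09 (SE), Pde12 of 0.18 ± 0.14 and Akap7 of -0.06 ± 0.17 (adjusted p between 0.732 and 0.938, edgeR). Of these 3 genes, 1 was negative and 2 were positive, with a median of 0.03. Mean levels were 154 ± 20.7 CPM in Poly(A:U) and 147 ± 7.99 CPM in PBS for Abce1, 39.8 ± 5.98 CPM in Poly(A:U) and 34.2 ± 6.76 CPM in PBS for Pde12, and 5.47 ± 0.273 CPM in Poly(A:U) and 5.61 ± 1.25 CPM in PBS for Akap7 (SD, n = 5 each). Pde12 was -0.07 ± 0.15 without PBS 1 to 3.

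Genes of interferon signalling gave 0 calls by edgeR. Among 13 genes of the interferon receptor, JAK, STAT and IRF list, which also holds inhibitors of the response, 7 were negative and 6 positive, with a median of -0.07. Stat2 and Irf9 encode parts of ISGF3. Stat2 had 59.5 ± 8.48 CPM in Poly(A:U) and 71.0 ± 11.5 CPM in PBS (SD, n = 5 each), with a log2 fold change of -0.28 ± 0.11 (SE; adjusted p = 0.677, edgeR), and PBS 1 to 3 exceeded all other libraries. Irf9 was at -0.07 ± 0.14, Irf7 at -0.40 ± 0.29 and Irf2, a repressor of interferon targets, at -0.24 ± 0.11 on the same scale. Without PBS 1 to 3 the median of the 13 was 0.05. limma voom with quality weights called 4 of the 13, and 6.79% of all genes. The 4, named because they were called, were Jak1 (log2 fold change -0.34, adjusted p = 0.0312), Stat2 (-0.34, 0.0338), Irf2 (-0.39, 0.0287) and Irf7 (-0.82, 0.0467). Without PBS 1 to 3, their log2 fold changes by edgeR were -0.02, -0.04, 0.03 and 0.14 in the same order.

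Among genes that sense double-stranded RNA or cytosolic DNA, 10 were tested, with 8 negative, 2 positive and a median of -0.27 (0.04 without PBS 1 to 3). Tlr3, the receptor of Poly(A:U), was low at 0.916 ± 0.549 CPM in Poly(A:U) and 1.27 ± 0.375 CPM in PBS (SD, n = 5 each), with a log2 fold change of -0.50 ± 0.41. Ticam1, its adaptor, was at -0.30 ± 0.12, and Tmem173, the DNA-sensing adaptor STING, at 0.21 ± 0.08. Both had an adjusted p of 0.677 (edgeR).

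Of 27 other type I interferon-stimulated genes, 23 were negative and 4 positive, with a median of -0.31, and 0 passed. Lgals3bp was at -1.09 ± 0.44 and Rtp4 at -0.51 ± 0.24 on the log2 scale (adjusted p = 0.677 and 0.686, edgeR), Ifit1 at -0.74 ± 0.35 and Isg15 at 0.05 ± 0.27. Between PBS 1 to 3 and PBS 4 and 5, 24 of the 27 were higher in PBS 1 to 3, with a median of 0.50. The 1 call there, Rsad2, named because it was called, went the other way, at -4.41 ± 0.75 (SE; adjusted p = 0.0484, edgeR), opposite to Oasl1, where 0.561% of all genes were called in either direction. Rsad2 was at 0.342 to 1.12 CPM in PBS 1 to 3, where the erythroid sum was 138 to 432 CPM. In the other 7 libraries it was at 9.31 to 34.9 CPM, with an erythroid sum of 1354 to 12300 CPM. A link between Rsad2 and erythroid RNA was not tested. Without PBS 1 to 3, 7 of the 27 were negative for Poly(A:U), with a median of 0.09, and Lgals3bp was at -1.43. Of 8 interferon genes looked up, none had enough reads for the test, and Ifnb1 had 0 reads in every library. limma voom with quality weights called 14 of the 53 tested genes of these 4 lists, against 6.79% of all genes. Among the called genes, Rsad2 was higher in Poly(A:U) (log2 fold change 3.26, against 1.12 by edgeR) and the others were lower. These calls, like that of Oasl1, set Poly(A:U) against all 5 PBS libraries. With the exception of Lgals3bp, they cannot be told apart from the difference between PBS 1 to 3 and the rest. For Lgals3bp, PBS 1 to 3 differed from PBS 4 and 5 by -0.62 ± 0.62 (SE). Without PBS 1 to 3 its log2 fold change for Poly(A:U) was -1.43 ± 0.63 (SE), which was not called (adjusted p = 0.817, edgeR).

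**Figure D5:**
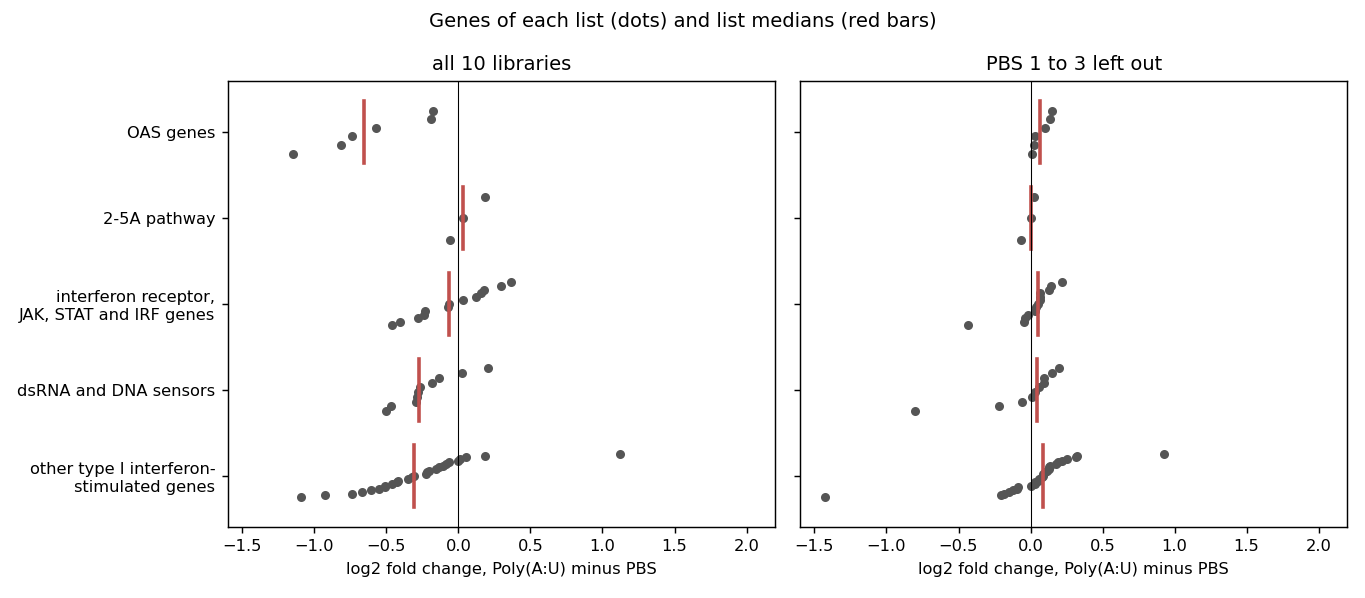
Log2 fold change (Poly(A:U) minus PBS, edgeR) of each tested gene of the OAS genes and of 4 lists of related genes, as dots with list medians as red bars, with all 10 libraries on the left and with PBS 1 to 3 left out on the right. The OAS median is -0.66 on the left and 0.06 on the right, and that of the other interferon-stimulated genes is -0.31 on the left and 0.09 on the right.

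Other genes were ranked by their likeness to single OAS genes across the 10 libraries. Likeness was the Pearson correlation of log2 CPM over the 10 libraries among 10181 genes, given as a description, since all values share the libraries, their depth and the step between PBS 1 to 3 and the rest. The genes named are the 3 highest of 10181 for each OAS gene, and with 10 libraries that choice alone makes r high. Rtp4, an interferon-induced chaperone of receptors, came first for both Oas1a (r = 0.956) and Oas3 (r = 0.939), followed by Glyctk (0.943) and H2-T24 (0.922) for Oas1a and by Rnf144b (0.919) and the RNA sensor gene Dhx58 (0.914) for Oas3. Cmpk2, an interferon-induced nucleotide kinase, came first for Oasl1 (r = 0.949), followed by Arhgap1 (0.944) and Sgpl1 (0.944). For Oas2, Oas1b and Oas1c, the nearest genes were on none of the interferon or sensor lists: Naaa (0.926), Cacna1b (0.908) and Xdh (0.882) for Oas2, Csad (0.928), Mnat1 (0.913) and Tspan17 (0.899) for Oas1b, and Lbh (0.948), Ccpg1 (0.940) and Grb2 (0.932) for Oas1c.

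The authors' deposited table of normalized CPM lists 6 of the 8 genes, without Oas1g and Oasl2. Its values differ from those above by at most 1.35-fold, which was reached by Oas1b and Oas3. Oasl1 in PBS 2 is at 17.0 in the authors' deposited table and at 12.7 CPM here. In the authors' deposited table, too, Oasl1 is highest in PBS 1 to 3, at 14.6 to 17.0, and at 9.06 or less in the other 7 libraries.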

How the data were processed

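Each library was deposited by the authors as estimated counts and TPM values per transcript, per the file headers, and a whole-series table of a normalized signal (edgeR-normalized CPM), per its file name. DRAGEN, edgeR 3.38.4 and the build mm10 appear in the submitters' processing notes; for counting settings, annotation release and use of strand, nothing is stated in the sources used here. No antisense gene that overlaps an OAS gene (Gm43069, Gm43068 and Gm13822 were checked) exceeded 0.448 CPM. Each pup is a separate sample by the design text.

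Estimated counts of 142333 transcripts were summed per gene with GENCODE M21; 538 transcripts without a gene held at most 0.0695% of reads. CPM values are unfiltered and without scaling factors. TPM was summed per gene for levels compared between genes. Sums were rounded and tested with edgeR 4.0.16 (R 4.3.3; TMM factors, filterByExpr with a minimum count of 10, robust quasi-likelihood, treatment as the only term) over 13729 genes. The name-start term was tested in a fit with treatment. Errors of log2 fold changes are SE derived from the edgeR fit (the size of the log2 fold change over the square root of the test's F value), with each pup as a sample. Alternatives were RLE factors or none, other filters, DESeq2 1.42.0, limma 3.58.1 voom, a replicate block, terms for file names, libraries left out, protein-coding transcripts alone and summed Oas1 copies. The test was tried on simulated data first. Sequence was matched with Biopython 1.88. Permutation tests used scipy 1.17.1.

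The members, lists and tests were chosen with earlier results of these data known. The named genes are all 8 OAS genes, the 2-5A pathway genes, Stat2, Irf9, Irf7, Tlr3, Ifit1 and Isg15, and from each other list the 2 genes with the smallest unadjusted p. 2 further genes of the lists are not reported here. The 3 most alike genes per OAS gene came from tested genes of at least 2 mean CPM, without antigen receptor segments, pseudogenes and Gm or Rik models.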

Additional observations from a re-analysis of the deposited data

Results flagged for a closer look

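Dixon's test for a single outlying value was applied to 44 groups of 5 libraries, of which 2 gave a library apart from the other 4; by chance about 1 in 20 groups would. Oasl2 was at 0.821 CPM in Poly(A:U) 5, while the next Poly(A:U) library was at 0.168 CPM and the lowest at 0.0473 CPM. These are 18 reads against at most 3. PBS 4, which has a name part in common with Poly(A:U) 5, also had 18 reads, as had PBS 1, which does not share it. Poly(A:U) 5 also had the highest Oasl1 and Oas3 values of its group. Tmem173, the gene of STING, was at 84.1 CPM in Poly(A:U) 3, while the next Poly(A:U) library was at 73.5 CPM and the lowest at 70.1 CPM. The causes of both values were not tested.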

How the results depend on the processing

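No OAS gene was called for Poly(A:U) against PBS by edgeR or DESeq2 under any alternative run; limma voom with quality weights called 1 OAS gene, Oasl1, 14 genes of the pathway lists and 932 of all genes, and DESeq2 called 13 of all genes. Leaving out 1 library gave 0 to 18 calls of all genes, the highest number without PBS 5. The negative direction held for all 6 tested OAS genes without any 1 library: -0.93 to -0.53 for Oas1a, -0.30 to -0.08 for Oas1b, -0.27 to -0.10 for Oas1c, -1.38 to -0.56 for Oas2, -0.83 to -0.38 for Oas3 and -1.01 to -0.63 for Oasl1. It turned without PBS 1 to 3 (Oas1a 0.0239, Oas1b 0.151, Oas1c 0.0083, Oas2 0.0984, Oas3 0.133, Oasl1 0.0284) and with their name start as a term (0.0222, 0.147, 0.0039, 0.0995, 0.137 and 0.0252 in the same order). With all shared name parts as terms, chosen after seeing the data, Oas1c was 0.069, Oas3 0.225 and Oasl1 0.159, while Oas2 (-0.59), Oas1b (-0.19) and Oas1a (-0.05) stayed negative. The cause was not tested.

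Calls between PBS 1 to 3 and PBS 4 and 5 numbered 77 with all libraries, and 3 to 1701 when 1 library was left out (3 without PBS 1 or PBS 2, 7 without PBS 3, 22 without PBS 4, 1701 without PBS 5, and, leaving out Poly(A:U) 2, 3, 4 or 5, 121, 38, 31 or 228). The 2 differing steps in the order of levels became 4 with protein-coding transcripts alone. Oas1b was last there because Oas1b-203, which held 96.1% of its reads, is not classed as protein-coding and was left out. The differing steps numbered 0 without PBS 1 to 3, where 7 libraries allow only larger p-values, and 1 to 3 without any 1 library.

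The replicate numbers did not pair the libraries: deviations of same-numbered libraries correlated at -0.18 to 0.14. With the numbers as a replicate block edgeR called 0 genes, and Oasl1 was at -0.72 and Oas1a at -0.69. Depth limits Oas1g and Oasl2, with at most 18 reads per library; without the filter on low counts their log2 fold changes were -1.80 ± 1.24 and -1.40 ± 0.75 (SE), which did not pass (edgeR).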
